A study of Mus musculus with 6 samples.

Results

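The receptors described here are 7 members of the tumour necrosis factor (TNF) receptor superfamily that T cells carry, Tnfrsf18, Tnfrsf4, Tnfrsf9, Tnfrsf1a, Tnfrsf1b, Tnfrsf25 and Cd27, together with the signalling adaptor Traf1. They were taken by symbol from the deposited table, make up 8 of its 35275 genes, and all 8 were among the 11575 genes that could be tested. The RNA came from regulatory T (Treg) cells of male mice aged 6 to 8 weeks, sorted by flow cytometry for yellow fluorescent protein after enrichment of CD4+ cells on a column. All mice carried Foxp3YFPcre, a Cre recombinase joined to the fluorescent protein and driven by the Foxp3 gene, so the controls carry the Cre too. The 3 control libraries came from Foxp3YFPcre mice, whose genotype label is wild type, and the 3 deletion libraries from Rcor1fl/flFoxp3YFPcre mice, in which floxed Rcor1 is recombined in Foxp3+ cells. Rcor1 encodes the scaffold of the CoREST corepressor complex. The design text speaks of independent biological replicates, and the sources used here do not say whether a library pooled several mice.

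Receptors of this family sit on the T cell surface as trimers and are engaged by ligands that are trimers themselves. Those with a death domain in the cytoplasmic tail, Tnfrsf1a and Tnfrsf25, recruit the adaptor Tradd, while the others bind TRAF proteins directly, and both routes activate NF-kappaB. In Treg cells Tnfrsf18 (GITR), Tnfrsf4 (OX40), Tnfrsf9 (CD137) and Tnfrsf1b (the second TNF receptor) are known as markers of the lineage or of its activated state. They provide costimulation that favours expansion and survival.

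The libraries held between 18538581 and 22349455 fragments, as recovered from the FPKM values, which divide a gene's fragments by its length and by the library's total. Rcor1 was at 16.1, 16.1 and 15.2 FPKM in control libraries 1, 2 and 3. It was at 12.5, 13.0 and 14.2 FPKM in deletion libraries 1, 2 and 3 (adjusted p = 0.0562, limma). This is a weak check of the labels, since a value for the whole gene also counts exons outside a floxed part. Which part is floxed is not given, and the extent of the deletion was not tested. The 7 Treg and T cell markers, Foxp3, Il2ra, Ctla4, Ikzf2, Ikzf4, Cd4 and Cd3e, were present in every library, with a summed level of 978 to 1148 FPKM in control and 1064 to 1085 FPKM in deletion libraries. These sums overlapped. Of the 7 markers 1 rose, Ikzf2, from 47.5 to 62.5 FPKM (adjusted p = 0.0463, limma), beside 8.95% of all tested genes. Ikzf4 was higher without overlap, at means of 27.8 and 33.6 FPKM (adjusted p = 0.0628, limma), and the rest overlapped. In all, 3 lists of markers of other tissues or cells differed between the groups without overlap. The 6 lens markers summed to 106 to 197 FPKM in control and 0.205 to 0.406 FPKM in deletion libraries, the 6 fat cell markers to 48.4 to 59.98 and 0.678 to 1.78 FPKM, and the 9 B cell markers to 29.2 to 48.4 and 49.4 to 60.1 FPKM. Summed plasma cell, myeloid, CD8 T and NK cell, and erythroid markers overlapped between groups. The part of any of these in the values of the members was not tested.

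Across the members the groups differed in opposite directions. Cd27 and Tnfrsf1a rose in the deletion libraries, by 28.6% and 26.7% of their control means. Tnfrsf4 and Tnfrsf9 had all deletion libraries below all controls, with means of 164 against 215 FPKM and 52.0 against 59.1 FPKM, but did not pass the threshold. Tnfrsf18, Tnfrsf1b, Tnfrsf25 and Traf1 overlapped between the groups. The count of 2 of 8 members past an adjusted p of 0.05, both higher, stands beside 12.0% of all tested genes that passed it in either direction, 8.95% as higher and 3.08% as lower. When libraries were scaled by median ratios instead, 2 members passed, both lower (Tnfrsf4 and Tnfrsf9), beside 4.83% of all tested genes as higher and 5.46% as lower. The median log2 fold change of the members was -0.04, and that of all tested genes was 0.08. Positive fold changes mean more in deletion libraries, on the scale of log2(FPKM + 1).

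**Figure D1:**
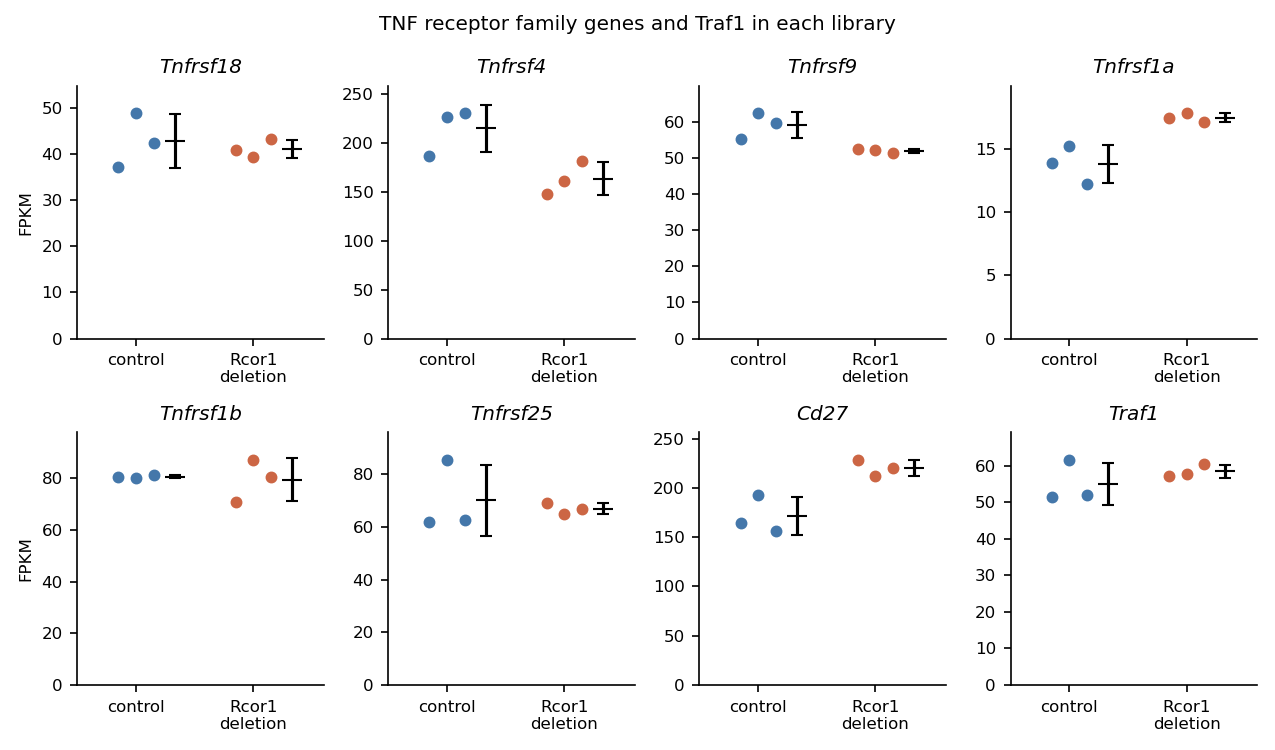
Level of each member in FPKM (y axis, from 0) in the 3 control and 3 Rcor1 deletion libraries; points are libraries 1, 2 and 3 from left to right, and bars are the mean ± SD of each group. Cd27 and Tnfrsf1a lie higher and Tnfrsf4 and Tnfrsf9 lower in all 3 deletion libraries, and the other 4 members overlap.

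Cd27, the receptor for CD70 that supports survival of naive and memory T cells, was at 164, 193 and 157 FPKM in control libraries 1, 2 and 3 and at 229, 212 and 220.1 FPKM in deletion libraries 1, 2 and 3. All deletion libraries were thus above the highest control library. The mean went from 171 ± 19.3 to 220.3 ± 8.44 FPKM (SD, n = 3 libraries each), a log2 fold change of 0.37 (SE 0.084, adjusted p = 0.0375, limma). The call did not hold when libraries were scaled by median ratios (a log2 difference of 0.28, adjusted p = 0.0704), nor with control library 1 or 3 or any deletion library left out (adjusted p = 0.0852 to 0.116), while without control library 2 it held (adjusted p = 0.00722). In human, CD27 is also a marker of memory B cells and plasma cells. The 5 plasma cell markers, all of them detected, summed to 192, 495 and 213 FPKM in control libraries 1, 2 and 3. In deletion libraries they summed to 488, 537 and 591 FPKM. Control library 2 was the highest control for them, but also for the summed Treg markers and for 6 of the 8 members, Cd27 among them. The plasma cell sum of control library 2, of which Jchain made 411 FPKM, reached the deletion range. So did Jchain, Xbp1 and Derl3 singly. Mzb1 was at 20.5 FPKM there against 20.6 to 25.4 FPKM in deletion libraries, and Sdc1 at 2.77 against 2.86 to 3.26 FPKM. Neither they nor Cd27 reached it. Any part of plasma cells in the Cd27 values was not tested. Of the 9 B cell markers 6 were tested and 1 rose, beside 8.95% of all tested genes, and none of the 9 was at 0 throughout. This was Cd22, with means of 2.04 FPKM in control and 5.17 FPKM in deletion libraries (adjusted p = 0.00793, limma). The median log2 fold change of the tested B cell markers was 0.63, beside 0.08 for all tested genes. In bulk RNA fewer cells of a type and less RNA per cell cannot be told apart.

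Tnfrsf1a, the death domain receptor for TNF that most cell types carry, was the lowest of the members. It was at 13.9, 15.3 and 12.3 FPKM in control and at 17.5, 17.9 and 17.2 FPKM in deletion libraries, with no overlap and little spread among the deletion libraries. Its mean went from 13.8 ± 1.51 to 17.5 ± 0.345 FPKM (n = 3 each), a log2 fold change of 0.33 (SE 0.082, adjusted p = 0.0479, limma). The call was lost when libraries were scaled by median ratios (adjusted p = 0.0916) and with control library 1 or 3 or any deletion library left out (adjusted p = 0.0848 to 0.131), while without control library 2 the adjusted p was 0.0204. The thinnest library held 490 fragments of this gene, a counting error of 4.52%.

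Cd27 (chr6:125232622-125237010, minus strand, GRCm38) and Tnfrsf1a (chr6:125349362-125362484, plus strand) lie 112351 bases apart. Their ratio overlapped between the groups, with Tnfrsf1a over Cd27 at 0.0846, 0.0791 and 0.0783 in control and 0.0763, 0.0842 and 0.0780 in deletion libraries. Between them lies Ltbr, the lymphotoxin beta receptor, at 0.28 to 0.61 FPKM in control and 0.34 to 0.77 FPKM in deletion libraries, too low to be tested. Within 150 kb of Cd27, a window chosen after the values were seen, 2 of 10 tested genes passed the threshold, beside 12.0% of all tested genes. They were Tnfrsf1a, a member already counted, and Iffo1 (log2 fold change 0.47). The SNARE gene Vamp1, which overlaps Cd27 on the other strand without a shared exon base, had means of 11.4 FPKM in control and 15.3 FPKM in deletion libraries (adjusted p = 0.0572, limma). Nothing in the labels says that the counting used strand.

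The 300 bases around the annotated start of Cd27 and Tnfrsf1a (250 before and 50 after, RefSeq, GRCm38.p6) are given because these 2 genes changed together, and those of Tnfrsf4 and of the downstream start of Tnfrsf9 because these 2 lay lower. Capitals mark letters that match the NF-kappaB consensus. Of the 2 Tnfrsf9 windows only the downstream one, which holds such letters, is shown. The upstream one (chr4:150919905-150920204) held no such letters.
Cd27, chr6:125236978-125237277, minus strand: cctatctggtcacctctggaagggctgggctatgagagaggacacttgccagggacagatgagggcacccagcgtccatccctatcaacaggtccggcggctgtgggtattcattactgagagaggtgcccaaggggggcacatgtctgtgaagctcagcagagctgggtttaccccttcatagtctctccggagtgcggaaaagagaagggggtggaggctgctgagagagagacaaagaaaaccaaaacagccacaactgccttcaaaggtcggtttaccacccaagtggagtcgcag
Tnfrsf1a, chr6:125349473-125349772, plus strand: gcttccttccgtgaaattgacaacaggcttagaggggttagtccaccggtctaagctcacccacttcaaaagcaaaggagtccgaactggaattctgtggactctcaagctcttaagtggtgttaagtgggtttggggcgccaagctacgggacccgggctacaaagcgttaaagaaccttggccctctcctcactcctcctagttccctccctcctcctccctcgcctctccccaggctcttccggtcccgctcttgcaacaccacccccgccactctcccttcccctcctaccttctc
Tnfrsf4, chr4:156013445-156013744, plus strand: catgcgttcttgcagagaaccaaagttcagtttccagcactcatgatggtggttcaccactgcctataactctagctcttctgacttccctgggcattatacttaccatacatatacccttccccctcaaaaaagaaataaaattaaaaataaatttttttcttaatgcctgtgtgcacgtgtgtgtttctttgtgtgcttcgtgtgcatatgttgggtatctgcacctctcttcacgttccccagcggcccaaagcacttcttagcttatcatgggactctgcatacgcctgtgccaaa
Tnfrsf9, chr4:150927749-150928048, plus strand: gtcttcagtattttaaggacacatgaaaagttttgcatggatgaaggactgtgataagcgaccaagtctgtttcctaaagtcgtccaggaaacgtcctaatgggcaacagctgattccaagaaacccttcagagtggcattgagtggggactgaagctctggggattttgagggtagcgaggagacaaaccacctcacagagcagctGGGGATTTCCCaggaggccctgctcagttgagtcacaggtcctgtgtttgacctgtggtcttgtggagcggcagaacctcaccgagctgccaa

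Each member matched at least 1 promoter window, 10 windows in all, since Tnfrsf9 and Tnfrsf25 have 2 RefSeq starts each. Gene positions given elsewhere are from GENCODE, which begins Tnfrsf9 at 150914562, before both of its windows. It begins Tnfrsf4 at 156013843, after the window shown. The NF-kappaB consensus, searched on both strands, was found in 1 window of Tnfrsf9, as a pair of overlapping matches that begin 43 and 42 bases before the start, and at 2 places in 1 window of Tnfrsf25. Among all 32851 windows 8.46% held it. The AP-1 letters TGANTCA were in the same Tnfrsf9 window (7.81% of all windows) and AATCAC, which holds the core bound by the CoREST partner Gfi1, was in that of Tnfrsf1b (10.4% of all windows). The windows of Cd27, Tnfrsf1a and Tnfrsf4 held none of the 3, which says only that these letters are not in these bases.

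Tnfrsf4, which encodes the OX40 receptor, had the widest range over the 6 libraries of the 8 members. Its levels were 187, 227 and 231 FPKM in control and 148, 162 and 181 FPKM in deletion libraries, so that the highest deletion library lay just under the lowest control library. The means were 215 ± 24.1 and 164 ± 16.8 FPKM (n = 3 each), a log2 fold change of -0.39 (SE 0.11, adjusted p = 0.0547, limma; 95% interval -0.64 to -0.14). It passed when libraries were scaled by median ratios (a log2 difference of -0.48, adjusted p = 0.0359). With voom on recovered fragments Cd27, Tnfrsf1a and Tnfrsf4 passed (adjusted p = 0.0228, 0.0365 and 0.0374), beside 15.9% of all tested genes, 12.4% as higher and 3.54% as lower. Over all alternatives the adjusted p of Tnfrsf4 lay between 0.0215 and 0.143. Without any single library the adjusted p was 0.0503 to 0.143.

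Tnfrsf9, a receptor induced on activated T cells, was at 55.3, 62.5 and 59.6 FPKM in control and at 52.6, 52.1 and 51.4 FPKM in deletion libraries. The deletion libraries lay close together and below all controls. The means were 59.1 ± 3.62 and 52.0 ± 0.596 FPKM (n = 3 each), a log2 fold change of -0.18 (SE 0.058, adjusted p = 0.0848, limma), and it passed under median-ratio scaling, at -0.26 (adjusted p = 0.0324). Under this scaling the members past the threshold were therefore Tnfrsf4 and Tnfrsf9, both lower, in place of Cd27 and Tnfrsf1a. There 10.3% of all tested genes passed, 4.83% as higher and 5.46% as lower. The 4 members whose groups did not overlap, 2 in each direction, compare with 39.1% of tested genes whose groups did not overlap, 29.3% as higher and 9.79% as lower. A two-sided exact permutation test over the libraries gave p = 0.1 for each of the 4, the smallest that 3 against 3 libraries allow.

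**Figure D2:**
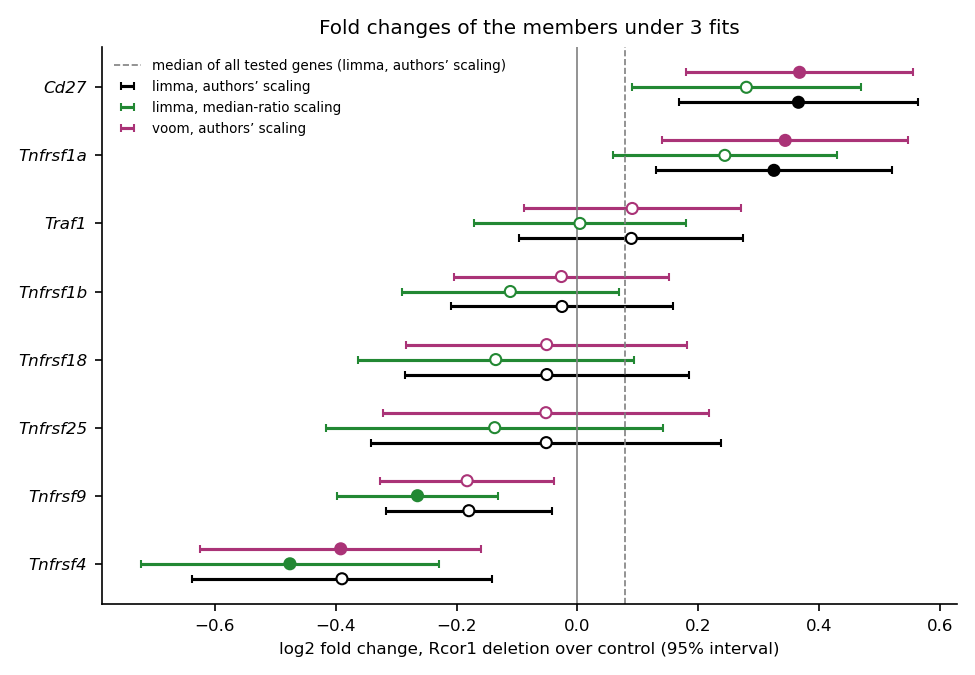
Log2 fold change of each member (x axis, deletion over control) with its 95% interval, from limma with the authors' scaling, limma with median-ratio scaling and voom with the authors' scaling; filled points have an adjusted p under 0.05. Cd27 and Tnfrsf1a lie to the right and Tnfrsf4 and Tnfrsf9 to the left under all 3 fits, and which of them pass differs between the 3 fits.

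Tnfrsf18, which encodes GITR, is the neighbour of Tnfrsf4 on chromosome 4, with 9551 bases between them (chr4:156013843-156016612 for Tnfrsf4 and chr4:156026164-156028895 for Tnfrsf18, both on the plus strand). It was at 37.3, 49.0 and 42.5 FPKM in control and at 40.9, 39.3 and 43.3 FPKM in deletion libraries. All deletion libraries lay within the control range, and the log2 fold change of -0.05 had a 95% interval of -0.29 to 0.18 (adjusted p = 0.753, limma). The antisense gene Gm16008 shares 414 of the 1524 exon bases of Tnfrsf18, so its fragments may be counted with it. Its means were 5.69 FPKM in control and 5.16 FPKM in deletion libraries. Of 12 tested genes within 150 kb of Tnfrsf4, 1 passed the threshold, beside 12.0% of all tested genes. This was Sdf4, a calcium-binding protein of the Golgi, which ends 232 bases before Tnfrsf4. Sdf4 fell (log2 fold change -0.21, adjusted p = 0.0429, limma).

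**Figure D3:**
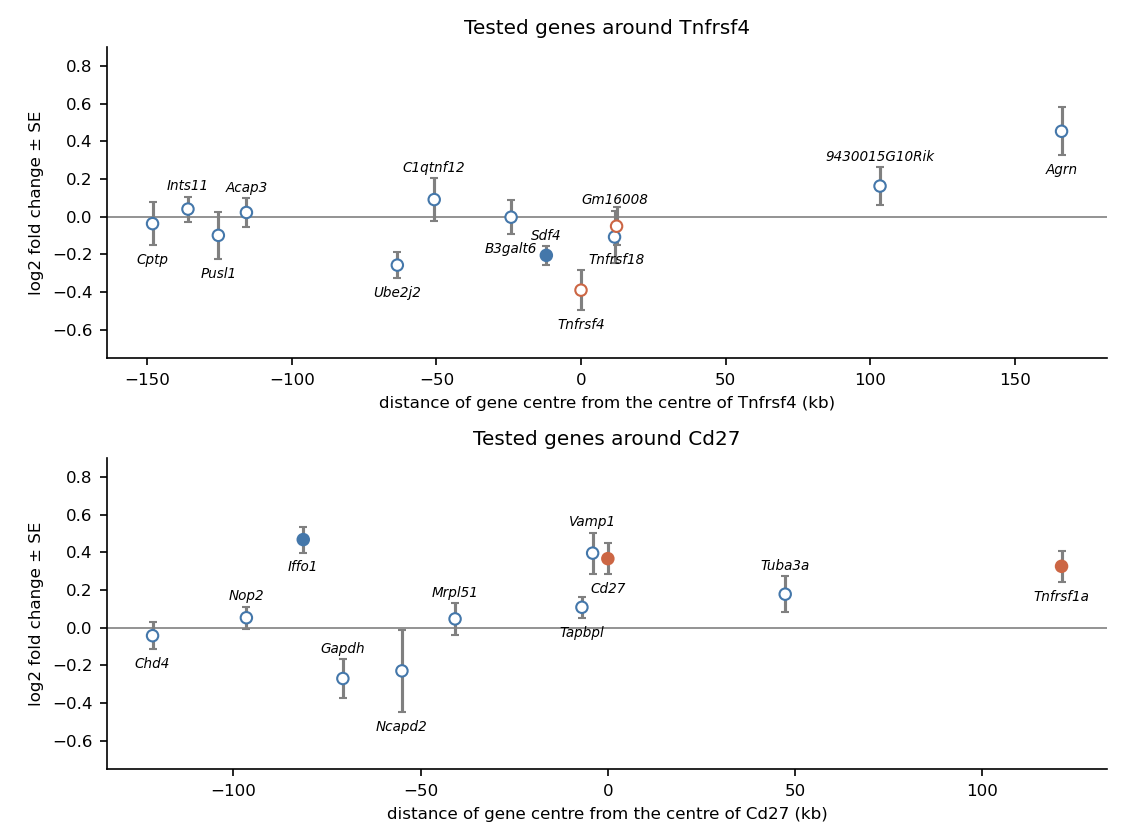
Log2 fold change ± SE of the tested genes within 150 kb of Tnfrsf4 (top) and Cd27 (bottom) against the distance of each gene's centre from that of the member in kb; orange marks members, and filled points have an adjusted p under 0.05. Around Tnfrsf4 only Sdf4 is filled, at -0.21, and around Cd27 the filled points are Cd27, Tnfrsf1a and Iffo1.

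Tnfrsf1b, the receptor through which TNF costimulates Treg cells, was the steadiest member among the controls. It was at 80.3, 80.0 and 81.3 FPKM in control and at 70.8, 87.1 and 80.3 FPKM in deletion libraries, which lay on both sides of the controls. Its log2 fold change was -0.03 (95% interval -0.21 to 0.16, adjusted p = 0.844, limma). The death domain receptor Tnfrsf25, whose ligand is Tnfsf15, was at 62.0, 85.6 and 62.8 FPKM in control and at 69.0, 64.9 and 66.9 FPKM in deletion libraries. Control library 2 alone lay above all others, and the log2 fold change was -0.05 (95% interval -0.34 to 0.24, adjusted p = 0.795, limma), or 0.10 without control library 2 (adjusted p = 0.223). Traf1, an adaptor that NF-kappaB induces and that joins the TRAF complexes of these receptors, was at 51.6, 61.7 and 51.9 FPKM in control and at 57.2, 57.9 and 60.4 FPKM in deletion libraries. Its log2 fold change was 0.09 (95% interval -0.10 to 0.28, adjusted p = 0.46, limma), and control library 2 was again the highest. Control library 2 held the highest control value of 6 of the 8 members, all but Tnfrsf4 and Tnfrsf1b.

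Of tested genes within 150 kb, 3 of 5 passed the threshold around Tnfrsf9 and 3 of 9 around Tnfrsf25, neither of which passed it itself, beside 12.0% of all tested genes. Park7, a redox-protective chaperone gene, lies on the other strand, with 124 bases between its start and the GENCODE start of Tnfrsf9. It fell from 195 to 147 FPKM (log2 fold change -0.40). The transcription factor gene Camta1, whose body covers part of Tnfrsf9 on the other strand with no shared exon base, was at 0.962 and 2.42 FPKM, and the clock gene Per3 at 0.452 and 1.53 FPKM; both rose by 0.80 on the log2 scale. With control means under 1 FPKM, Camta1 and Per3 needed the deletion libraries to reach the level required for testing. The count of 3 of 5 thus rests in part on genes that entered the test through the group where they are higher. Beside Tnfrsf25, Plekhg5 rose by 0.71 and Espn, an actin-bundling protein gene, fell by 0.63. Around Tnfrsf18 1 of 11, around Tnfrsf1a 1 of 6, around Tnfrsf1b 0 of 2 and around Traf1 0 of 6 tested neighbours passed.

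By level per length, the order in control libraries was Tnfrsf4, Cd27, Tnfrsf1b, Tnfrsf25, Tnfrsf9, Traf1, Tnfrsf18 and Tnfrsf1a, with means from 215 down to 13.8 FPKM. Tnfrsf4 and Cd27 overlapped there, as did the neighbours from Tnfrsf1b to Traf1. In deletion libraries Cd27 came first and Tnfrsf4 second, Traf1 stood above Tnfrsf9, and no neighbours in the order overlapped. Cd27 and Tnfrsf4 were higher than 97.6% and 97.5% of all tested genes by their mean over the 6 libraries, and Tnfrsf1a than 59.8%.

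Ratios of 2 members within a library do not change when the library is scaled by a single factor. Tnfrsf4 over Cd27, a pair chosen after the values were seen, was 1.14, 1.17 and 1.47 in control and 0.647, 0.763 and 0.824 in deletion libraries, so the more abundant of the pair was Tnfrsf4 in all controls and Cd27 in all deletion libraries. Tnfrsf18 over its neighbour Tnfrsf4 was 0.199, 0.216 and 0.184 in control and 0.276, 0.243 and 0.239 in deletion libraries, again without overlap. Tnfrsf1a over Tnfrsf1b, the 2 receptors for TNF, went from 0.172 ± 0.0201 to 0.222 ± 0.0220 (n = 3 each). For each of these 3 pairs an exact two-sided permutation test gave p = 0.1, the smallest possible, and 0.165 adjusted over all 28 pairs. Of all 28 pairs, 5 were higher and 12 lower in deletion libraries without overlap, so these pairs are not set apart by it. Pairs that share a member are not independent of each other.

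**Figure D4:**
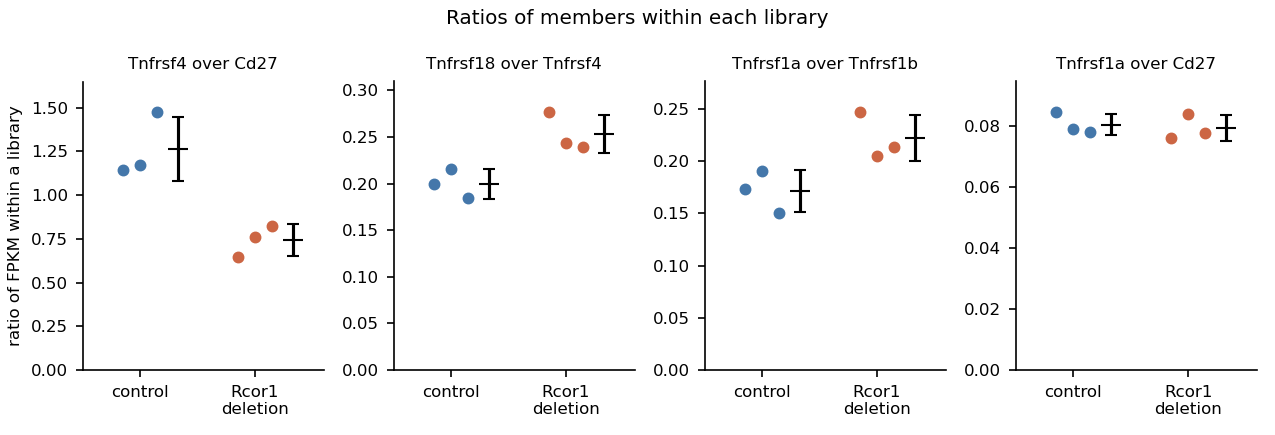
Ratio of the FPKM values of 2 members within each library (y axis, from 0) for 4 pairs; points are libraries 1, 2 and 3 and bars the mean ± SD. Tnfrsf4 over Cd27 lies above 1 in all control and below 1 in all deletion libraries, and Tnfrsf1a over Cd27 overlaps.

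The genes whose levels over the 6 libraries were most like those of Tnfrsf4, by the root-mean-square difference of centred log2(FPKM + 1) values, were Ndufaf8 (0.0537), Gm10177 (0.0721), Gm9762 (0.0766), Fam174b (0.0830) and Gm14018 (0.0833). Ndufaf8, an assembly factor of respiratory complex I, was at 25.3, 29.7 and 28.5 FPKM in control and 19.1, 21.8 and 22.5 FPKM in deletion libraries. None of the 5 is a member of the TNF receptor family.

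Of the 8 ligands of the members 4 were high enough to be tested, and 2 rose, beside 8.95% of all tested genes. Tnf, the ligand of Tnfrsf1a and Tnfrsf1b, was at 10.8, 16.1 and 15.4 FPKM in control and at 28.9, 24.8 and 21.8 FPKM in deletion libraries, without overlap. It rose by 0.80 on the log2 scale (SE 0.16, adjusted p = 0.0255, limma), a call lost without control library 3 or any deletion library (adjusted p = 0.0548 to 0.0779). Tnfsf9, the ligand of Tnfrsf9, had means of 1.67 ± 0.306 FPKM in control and 2.63 ± 0.238 FPKM in deletion libraries and rose by 0.45 on the log2 scale (adjusted p = 0.0496, limma). That call was lost with each library left out in turn (adjusted p = 0.0691 to 0.13) and under median-ratio scaling. Lta, which binds both TNF receptors, was at 39.8 ± 4.96 and 46.8 ± 6.21 FPKM (adjusted p = 0.236), and Grn, the progranulin gene, at 16.02 ± 2.10 and 16.9 ± 3.19 FPKM (adjusted p = 0.80). Tnfsf4, Tnfsf15, Cd70 and Tnfsf18 were under 1 FPKM in every library and were not tested. Tnfsf4, the ligand of Tnfrsf4, was at 0.895, 0.955 and 0.879 FPKM in control and 0.534, 0.882 and 0.536 FPKM in deletion libraries, from 20 to 35 fragments. Tnfsf15 had 4, 3 and 3 fragments in control and 13, 18 and 7 in deletion libraries, and Cd70 had 2 to 11 fragments in any library. Tnfsf18, the ligand of Tnfrsf18, had 0, 0 and 1 fragments in control and 6, 1 and 2 in deletion libraries, near the limit of 3 fragments that a count of 0 allows.

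Of 8 tested ligands of other family receptors, 4 rose and 0 fell, with a median log2 fold change of 0.31 beside 0.08 for all tested genes, of which 8.95% rose and 3.08% fell. The count was 3 under median-ratio scaling and 2 with quantile normalization. Cd40lg, the helper signal to B cells, had means of 19.9 ± 0.588 FPKM in control and 29.6 ± 1.88 FPKM in deletion libraries, rose by 0.55 on the log2 scale (adjusted p = 0.00474, limma) and passed under all 17 alternatives. Tnfsf10 (TRAIL) rose from 13.5 to 17.0 FPKM, Tnfsf11 (RANKL) from 15.4 to 19.6 FPKM and Tnfsf14 (LIGHT) from 9.92 to 12.5 FPKM, with adjusted p-values of 0.0161, 0.0170 and 0.0407. Tnfsf14 did not pass under median-ratio scaling (adjusted p = 0.0886). Without control library 1 or any deletion library, Cd40lg alone of these passed. Among 11 tested receptors outside the members, 1 rose, the death receptor gene Fas, from 25.7 to 31.5 FPKM (adjusted p = 0.0279), which did not pass with median-ratio scaling.

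Among 13 TRAF adaptors and partners 2 rose and 1 fell. This list and the next one stand beside 8.95% of all tested genes that rose and 3.08% that fell. Traf3ip2, an adaptor of the IL-17 receptor, rose from 9.03 ± 0.153 to 12.7 ± 0.876 FPKM (adjusted p = 0.0112), Traf7 rose from 31.9 to 41.3 FPKM and Traf6, a ubiquitin ligase, fell from 18.7 ± 1.06 to 15.4 ± 0.352 FPKM (adjusted p = 0.0389). Traf2, Traf3 and Traf5, the partners that costimulatory receptors bind, were at 20.5 and 20.3, 18.7 and 18.6, and 20.9 and 21.8 FPKM in control and deletion and did not pass. Of 16 genes of the death domain and ubiquitin arm, Tradd rose from 20.1 to 24.0 FPKM, a call lost under median-ratio scaling, while Tax1bp1, a partner of the inhibitor Tnfaip3, fell from 66.7 to 54.9 FPKM and Siva1, which binds the tail of CD27, fell from 20.7 ± 3.41 to 14.95 ± 0.764 FPKM (adjusted p = 0.0496). Tnfaip3 itself ranged from 66.8 to 129 FPKM in control and from 99.4 to 137 FPKM in deletion libraries.

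Further down the pathway, 1 of 12 kinases and their partners rose, Tab1 from 8.35 to 10.3 FPKM, and 1 of 11 NF-kappaB subunits and inhibitors rose, Bcl3, with means of 23.3 ± 2.04 FPKM in control and 33.8 ± 2.14 FPKM in deletion libraries (adjusted p = 0.0124, limma). Of 13 NF-kappaB response genes, Icam1 rose from 19.4 to 25.7 FPKM and Ccr7 fell from 205 to 139 FPKM. Of 5 tested genes of receptor shedding, 2 rose, Adam17, the protease that cuts TNF and its receptors from the surface, from 20.96 to 25.4 FPKM, and Rhbdf2, which brings it to the surface, from 5.26 to 7.47 FPKM. The call of Adam17 was lost with each library left out in turn (adjusted p = 0.062 to 0.126). That of Rhbdf2 held only without control library 2 (adjusted p = 0.0187), and reached up to 0.0933 without another library. In all, 15 of 93 tested pathway genes rose and 4 fell, with a median log2 fold change of 0.10, beside 8.95% and 3.08% of all tested genes. Under median-ratio scaling 8 rose and 8 fell, beside 4.83% and 5.46%. There Tnfsf9, Tnfsf14, Fas, Traf7, Tradd, Tab1 and Adam17 no longer passed, while Bcl2l1, Sod2, Tnip1 and Traf3ip3 passed as lower. The number that passed was 5, 26 and 9 without control library 1, 2 or 3 and 6, 3 and 2 without deletion library 1, 2 or 3. Cd40lg and Ccr7 passed each time, and Bcl3 without each library but deletion library 3 (adjusted p = 0.0566).

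**Figure D5:**
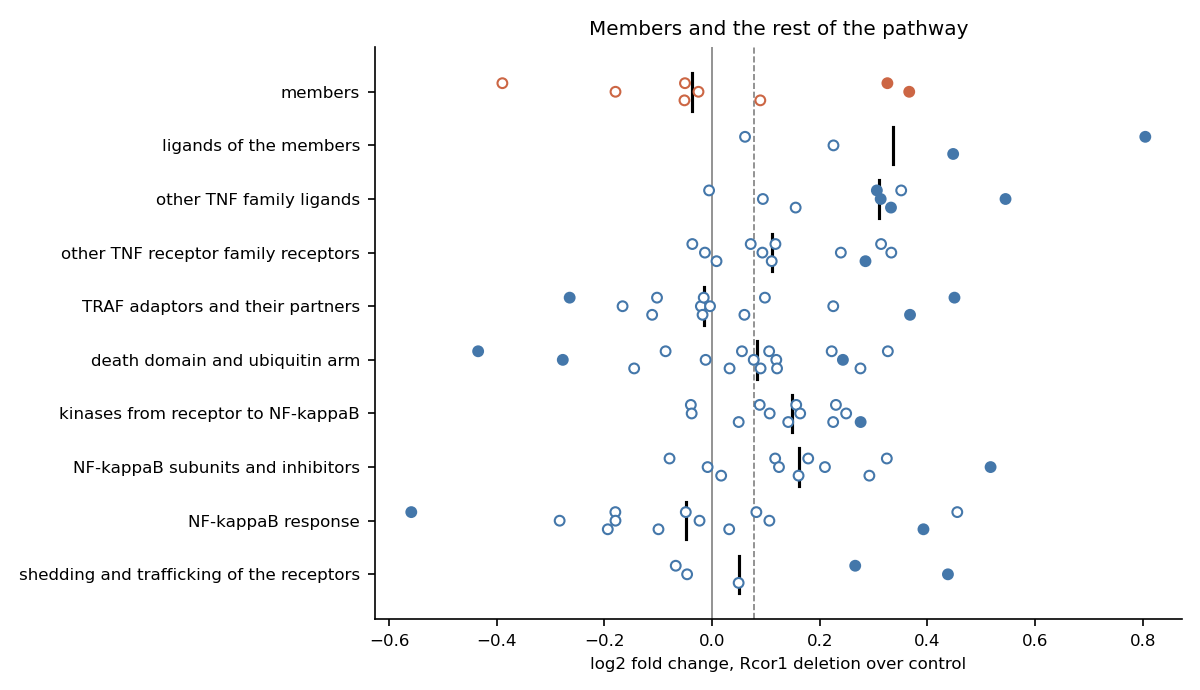
Log2 fold change (x axis, deletion over control) of each tested gene among the members (orange) and in 9 lists of the pathway (blue); filled points have an adjusted p under 0.05, black bars are list medians and the dashed line is the median of all tested genes at 0.08. Filled points lie on both sides for TRAF adaptors, the death domain arm and the NF-kappaB response, and those of both ligand lists lie to the right.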

How the data were processed

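The authors deposited 1 table of FPKM values with a column per library, a unit that was read from the values. STAR and mm10 are named in the submitters' processing notes, and the sources used here give no counting tool or annotation. Table columns were matched to samples by description, and 0 were left unused. Symbols, positions and lengths came from the mouse GENCODE annotation M21 (GRCm38, which UCSC calls mm10).

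Library totals were recovered because FPKM times length times the total gave whole fragments, within 0.01, for 15336 of 21898 genes above 0 with the longest transcript. For the other 6562 the shortest length that gave whole fragments was solved from the values, which is no check of the totals. Totals are thus of fragments assigned to genes, and PCR copies were not told apart. Counting error and the limit of 3 fragments cover counting only.

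The test was limma 3.58.1 (R 4.3.3) with an expression trend on log2(FPKM + 1), which understates changes of low genes. A gene was tested if 3 or more libraries had it at 1 FPKM or above, two-sided, with Benjamini-Hochberg adjustment over all 11575 and a threshold of 0.05. Alternatives, 17 in number, were 2 other pseudocounts, 2 other filters, 2 scalings, no trend, array quality weights, a replicate block, voom on recovered fragments, and each library left out in turn. Voom with median-ratio scaling was added after the data were seen. The members and lists were chosen with earlier results of these data known. Named genes were the members, the ligands of the members, Rcor1, up to 4 genes past the threshold from each list, and the 5 genes most like the member with the widest range. Ltbr, the genes within 150 kb of a member, Traf2, Traf3, Traf5 and Tnfaip3 were named outside that rule. So were the marker genes given singly, the genes that passed only under median-ratio scaling and the ratios. Exact permutation tests were used for single values. The labels name no batch, so one that followed genotype cannot be told apart from it.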

Additional observations from a re-analysis of the deposited data

How the results depend on the processing

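Of 11575 tested genes 1392 passed, 1036 of them as higher, against 844 with no filter on low values, 868 with quantile normalization and 2396 with array quality weights. Leaving out each library gave 336 to 1942. With median-ratio scaling 559 of 1191 were higher. Members past the threshold, 2 in the main test, were 0 with no filter, 0 without the trend and 1 with quantile normalization (Cd27), and 0 to 2 with each library left out, with both calls kept only without control library 2. Pathway genes, 19 in the main test, were 9 with no filter, 12 with quantile normalization, and 2 to 26 with each library left out. Cd27, Tnfrsf1a, Tnfrsf4, Tnfrsf9 and Traf1 kept their direction under all 17 alternatives. With array quality weights Tnfrsf18 turned to 0.033 and Tnfrsf25 to 0.016 (log2). With each library left out Tnfrsf18 lay between -0.15 and 0.047, Tnfrsf25 between -0.13 and 0.098 (both above 0 without control library 2), Tnfrsf1b between -0.094 and 0.054 (above 0 without deletion library 1), and Grn between -0.063 and 0.20 (below 0 without control library 1 or deletion library 2). Grn was also at -0.028 with quantile normalization, -0.021 with median-ratio scaling and -0.023 with voom on that scaling. The cause was not tested.

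Replicate numbers are shared between the groups but did not pair the samples, with correlations of same-numbered deviations of 0.21, -0.14 and -0.16. Across numbers, control library 3 with deletion library 2 gave 0.34 and control library 2 with deletion library 3 gave 0.18. The remaining pairs were negative, and whether libraries pair under other numbers was not tested. A replicate block left 404 genes, 1 member (Tnfrsf4) and 4 pathway genes past the threshold. Depth limits the low ligands (0 to 35 fragments), not the members (490 fragments or more).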
